A study of Mus musculus with 15 samples.

Results

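The genes examined belong to the sine oculis (Six2, Six4 and Six5), eyes absent (Eya1, Eya2, Eya3 and Eya4) and dachshund (Dach1) families. They were taken as a named list of 8 genes, of the 22342 protein-coding genes with an annotated start on chromosomes 1 to 19 and X of the mouse genome (build mm9, GENCODE vM1 annotation). Each gene was described by the ChIP-seq regions in its gene body and within 50 kb on either side, called its window here.

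Chromatin came from αTN4 cells, lens epithelial cells of the mouse transformed by SV40 T antigen, and from newborn lens. One population of αTN4 cells carried a control shRNA (control) and another an shRNA against Pax6 (Pax6 KD), both as pooled, puromycin-selected cells after lentiviral infection and grown in DMEM F-12 with fetal bovine serum. Pax6, RNA polymerase II (Pol2), H3K4me1, H3K4me2 and H3K4me3 were mapped in control cells, the same 3 histone marks in Pax6 KD cells, and H3K4me2 in the lenses of CD-1 mice at 1 day of age. Each of these 9 libraries was the only one of its kind, so the error between replicates is unknown and differences between conditions are given without p-values. The lists held 504 Pax6 peaks and between 14301 and 66274 regions for Pol2 and the histone marks. The RNA-seq libraries of the series were not analysed here. Per the text of the study, its RNA-seq used a Pax6 KD line made with a different shRNA from that of the ChIP-seq cells. The level of Pax6 in the KD cells was not measured here, and the study reported it as reduced in both lines.

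The sine oculis family encodes homeodomain transcription factors. Eya proteins, which carry a phosphatase domain, bind these factors as coactivators, and Dach proteins act in the same complexes, often as corepressors. Together with Pax6 they form a regulatory network first worked out in the fly eye, and in vertebrates its members act in the eye, ear, kidney and skeletal muscle. H3K4me3 marks active or poised promoters, H3K4me1 marks enhancers and their flanks, and H3K4me2 is found at both.

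The members lie on separate chromosomes, so no region was counted for more than 1 of them. Six2 lies at chr17:86083608-86087594 on the reverse strand, Six4 at chr12:74201246-74214401 on the reverse strand, and Six5 at chr7:19679893-19683694 on the forward strand. Eya1 occupies chr1:14159035-14300281 (reverse), Eya2 chr2:165480798-165597227 (forward), Eya3 chr4:132194902-132280680 (forward) and Eya4 chr10:22823974-23069701 (reverse). Dach1 is the longest, at chr14:98186066-98568984 on the reverse strand. The windows ran from 104 kb at Six2 and Six5 to 483 kb at Dach1. The Six5 window held 7 other protein-coding genes, that of Eya3 held 3, those of Six4 and Eya2 held 1 each, and those of Six2, Eya1, Eya4 and Dach1 held none. Regions in the Six5 and Eya3 windows therefore often belonged to the starts of neighbours.

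The member starts differed in base composition, and 4 of them are shown because they differed in their marks as well. The sequences are the 200 bases before the first annotated start in mm9, on the strand of the gene, with every CpG in capitals. They span chr17:86087595-86087794 for Six2, chr2:165480598-165480797 for Eya2, chr4:132194702-132194901 for Eya3 and chr10:23069702-23069901 for Eya4.
Six2: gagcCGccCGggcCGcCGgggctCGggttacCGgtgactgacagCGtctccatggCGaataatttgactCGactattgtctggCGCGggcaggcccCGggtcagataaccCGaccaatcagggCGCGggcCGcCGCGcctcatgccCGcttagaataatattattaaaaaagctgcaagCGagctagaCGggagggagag
Eya2: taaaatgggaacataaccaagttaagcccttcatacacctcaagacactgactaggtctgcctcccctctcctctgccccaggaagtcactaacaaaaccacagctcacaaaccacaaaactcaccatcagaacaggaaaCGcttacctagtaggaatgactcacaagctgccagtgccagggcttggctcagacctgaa
Eya3: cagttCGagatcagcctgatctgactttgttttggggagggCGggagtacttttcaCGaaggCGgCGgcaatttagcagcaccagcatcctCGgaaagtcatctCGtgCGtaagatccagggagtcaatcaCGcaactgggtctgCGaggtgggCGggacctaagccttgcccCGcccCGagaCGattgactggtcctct
Eya4: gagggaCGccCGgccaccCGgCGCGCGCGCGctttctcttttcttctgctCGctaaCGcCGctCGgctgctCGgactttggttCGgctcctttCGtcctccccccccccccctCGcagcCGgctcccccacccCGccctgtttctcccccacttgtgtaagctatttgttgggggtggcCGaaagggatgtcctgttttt
These stretches held 21 CpG in Six2, 1 in Eya2, 14 in Eya3 and 19 in Eya4. Over the 250 bases before and 50 bases after the start, the ratio of observed to expected CpG was 1.13 in Six2, at percentile 98.2 of 22337 genes, and 0.189 in Eya2, at percentile 21.9. It was 0.738 in Eya3, 0.901 in Eya4, 0.857 in Dach1, 0.666 in Six4, 0.559 in Six5 and 0.503 in Eya1. The median over all genes was 0.542, over the 10966 genes with control H3K4me3 within 2 kb of a start 0.783, and over the 11371 genes without it 0.246.

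Pax6 peaks were scored first. Eya4 was the only member with a Pax6 peak in its window, 1 of 8, where 3.48% of all genes had one. Windows differ in size, and among genes with a window of at least 200 kb the share was 6.63%, with 1 of the 4 such members. The peak lies at chr10:22846518-22846763 with its summit at 22846615, in intron 12 of the 18 introns of both coding Eya4 transcripts. It is 223 kb from the start of the gene and 22.6 kb from its end. Its fold enrichment over background was 5.90, at percentile 25.4 of the 504 peaks, and its −log10 q was 10.1, at percentile 53.0. Percentiles of fold are given throughout within one list, since the lists come from libraries whose depths are not known.

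The whole peak is printed, as the one Pax6-bound sequence among the members, on the forward strand of mm9, 246 bases with 39.8% GC.
Eya4 Pax6 peak: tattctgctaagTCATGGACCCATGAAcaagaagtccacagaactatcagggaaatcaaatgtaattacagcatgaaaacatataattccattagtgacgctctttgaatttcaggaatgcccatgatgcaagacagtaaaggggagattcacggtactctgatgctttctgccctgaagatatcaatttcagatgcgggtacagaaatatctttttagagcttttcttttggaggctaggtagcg
The capitals mark the best match within 100 bases of the summit to a 15-base Pax6 matrix. The end of the peak that lies farther from the summit was not scored. The matrix was learned from the 472 summit windows (100 bases to each side) on the chromosomes other than 10. The marked match scored 7.31, below the score of 10.6 that 5% of windows beside Pax6 peaks exceeded, and its centre lay 78 bases from the summit. The score stood at percentile 18.8 of all Pax6 summit windows. Of the 32 windows on chromosome 10, which the search did not use, 17 passed the same score (53.1%, 95% Wilson interval 36.4 to 69.1). The Ets word CAGGAA, read on both strands, occurred once in the Eya4 peak, in 21.2% of all Pax6 summit windows and in 20.04% of the windows beside them. The AP-1 word TGACTCA, the Meis word TGACAG and the Ets word CCGGAA were not found in the peak, and they occurred in 16.1%, 13.9% and 6.15% of the summit windows and in 3.97%, 10.9% and 1.88% of those beside. No match says only that these letters are not in this stretch.

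At the same intronic site H3K4me1 and H3K4me2 were present in control and in Pax6 KD cells, and H3K4me2 also in lens. The control H3K4me1 island, a broad region called by SICER, ran over chr10:22844601-22848400 with 66 ChIP reads and 46 control-library reads. The KD island ran over chr10:22844801-22850200 with 83 and 58 reads. Read density was 17.4 ChIP reads per kb in control and 15.4 in KD. That difference, −0.18 on the log2 scale, is 0.13 above the median of −0.31 over 13763 islands paired 1 to 1. The H3K4me2 peak had a fold percentile of 13.1 in control (chr10:22846163-22847043), 39.0 in KD (chr10:22846191-22847039) and 42.2 in lens (chr10:22846310-22847138). Only its rank within each list can be compared, and the rank was higher in KD and lens than in control.

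The other members had no Pax6 peak of αTN4 cells in their windows. The nearest peak was 100.4 kb from Six2, within the window of the related gene Six3. It was 881 kb from Eya2, 1698 kb from Eya1, 2609 kb from Eya3, 5648 kb from Six5, 7682 kb from Dach1 and 38599 kb from Six4. The median distance over 22350 genes was 1826 kb, so Six2, Eya2 and Eya1 lay nearer to a peak than that and the others farther away. A peak list of 504 entries sets what can be seen, and a weaker site below the threshold of the caller would not be listed.

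**Figure D1:**
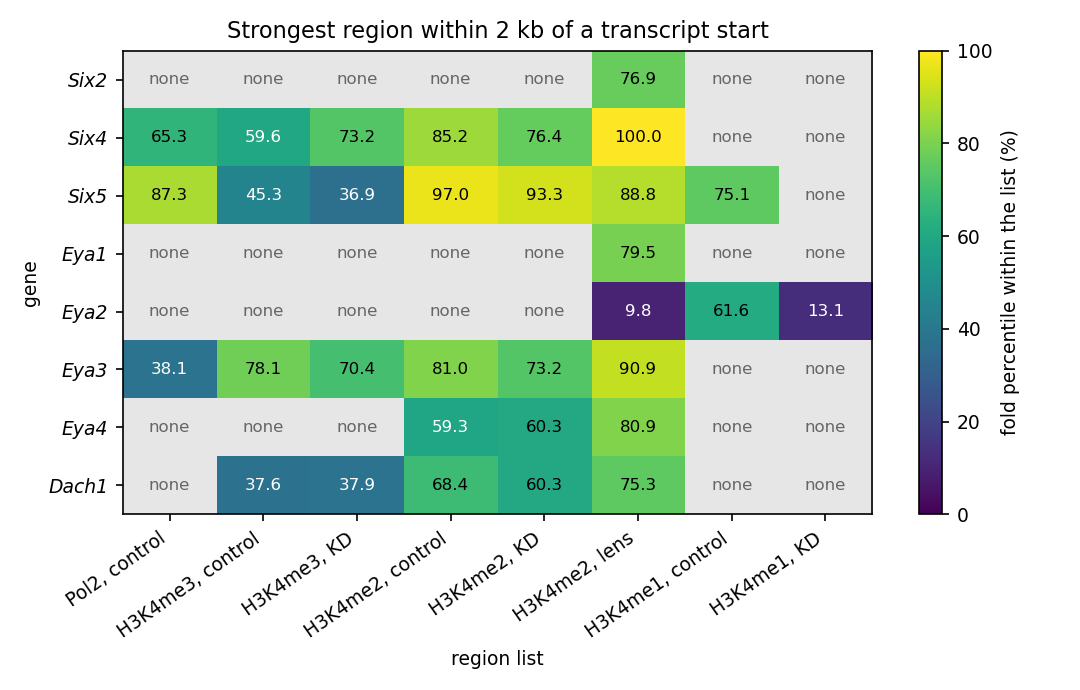
Strongest region within 2 kb of a transcript start, for each of the 8 genes (rows) and each list of regions (columns). Numbers and colours give the fold percentile of the region within its own list in %, and grey squares marked none had no region. Six4, Six5 and Eya3 had Pol2, H3K4me3 and H3K4me2 in αTN4 cells, Dach1 had H3K4me3 and H3K4me2 without Pol2, Eya4 had H3K4me2 alone, and lens H3K4me2 was present at all 8.

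Marks at the starts separated the members into groups. A Pol2 peak lay within 2 kb of a start of 3 of 8 members, Six4, Six5 and Eya3, where 48% of all genes had one. H3K4me3 lay at the starts of 4 of 8 in control cells (49.1% of all genes) and of the same 4 in Pax6 KD cells (47.8%), these 3 and Dach1. Of all genes with control H3K4me3 at a start, 96.8% had it in KD as well, and 4 of these 4 members did. H3K4me2 lay at the starts of 5 of 8 in control cells (58.2%) and of the same 5 in KD cells (57.1%), with Eya4 added. As shares of 8 genes, these counts lay near the shares of all genes.

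Six4, a homeodomain factor known from muscle development, had a Pol2 peak across its start at chr12:74214206-74214607, with a fold of 13.5 at percentile 65.3. Its H3K4me3 peak had a fold of 20.8 in control (percentile 59.6) and 18.5 in KD (percentile 73.2). Both H3K4me3 peaks lay inside the gene next to its start, 2390 bp wide in control and 2401 bp in KD. The lens H3K4me2 peak at this start, chr12:74211479-74214884, had a fold of 41.3, at percentile 99.98 of the 56214 lens peaks. In αTN4 cells the strongest H3K4me2 peak there reached percentile 85.2 in control and 76.4 in KD. Six4 was thus marked at its start in every list of these marks, and its rank was highest in lens.

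Six5, whose loss in mice leads to cataract, begins just beyond the end of Dmpk, and reads near its start cannot be assigned to one gene. Pol2 at the start reached a fold of 21.5 (percentile 87.3), the highest among the members. H3K4me3 had a fold of 15.9 in control (percentile 45.3) and 10.3 in KD (percentile 36.9), over 1139 bp and 789 bp. H3K4me2 reached percentile 97.0 in control, 93.3 in KD and 88.8 in lens. A control H3K4me1 island next to this start, chr7:19676401-19679200 with 55 ChIP reads and 26 control-library reads, had no KD island.

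Eya3, the Eya gene known for broad expression, had Pol2 at its start with a fold of 7.34 (percentile 38.1). H3K4me3 had a fold of 27.9 in control (percentile 78.1) and 17.7 in KD (percentile 70.4). H3K4me2 reached percentile 81.0 in control, 73.2 in KD and 90.9 in lens. Its promoter is the CpG-rich sequence printed above, and each list of Pol2, H3K4me3 and H3K4me2 had a region there. Pol2 was mapped in control cells only, and in lens H3K4me2 only.

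Dach1, the corepressor of the set, had H3K4me3 with no Pol2 peak at its start, a combination seen at 2.74% of all genes. The H3K4me3 peak covered chr14:98566782-98568524 in control, with a fold of 13.2 (percentile 37.6), and chr14:98566588-98568580 in KD, with a fold of 10.6 (percentile 37.9). The rank thus differed by less than 1 percentile point. H3K4me2 around the start reached percentile 68.4 in control, 60.3 in KD and 75.3 in lens. Over the whole windows a Pol2 peak was present at 3 of 8 members, where 70.1% of genes had one, and the windows of Dach1, Six2, Eya1, Eya2 and Eya4 held none.

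Eya4, known from inherited hearing loss and heart disease, had H3K4me2 without H3K4me3 or Pol2 at its start, as did 9.27% of all genes for H3K4me2 without H3K4me3. The 2 control peaks at the start had folds of 8.16 and 8.62, and the stronger stood at percentile 59.3. The weaker reached just across the start, and the stronger lay upstream of it. In KD cells the stronger peak stood at percentile 60.3. In lens 1 peak spanned the start, chr10:23067755-23070840, with a fold of 20.8 at percentile 80.9. Its width of 3086 bp compares with 980 bp and 742 bp for the control peaks.

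Six2, Eya1 and Eya2 had no Pol2, H3K4me3 or H3K4me2 within 2 kb of a start in control or KD αTN4 cells. All of them had H3K4me2 there in lens, 3 of 8 members, where 11.7% of all genes had H3K4me2 at a start in lens and none in control. At Six2, a regulator of kidney progenitor cells, the stronger of 2 lens peaks covered chr17:86086290-86087349 with a fold of 18.7 (percentile 76.9). The Eya1 peak, at the gene mutated in branchio-oto-renal syndrome, covered chr1:14296595-14300930 with a fold of 20.1 (percentile 79.5) and was 4336 bp wide. That of Eya2 was weak and lay only near the start, at chr2:165478868-165479133 with a fold of 3.69 (percentile 9.76). Eya2 was counted only through the 2 kb limit, because the lens peak lay 1665 bp from the start and the weak control peak of the gene (chr2:165478550-165478761, fold 3.06) lay 37 bp beyond the limit and 107 bp from the lens peak. Within 1 kb of a start, or at a stricter threshold (−log10 q of 5 or more), the count was 2 of 8, Six2 and Eya1, and within 1 kb the share of all genes was 11.8%.

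Lens H3K4me2 lay within 2 kb of the starts of all 8 members, where 66.8% of all genes had it. Within 1 kb this held for 7 of 8, all but Eya2, and for 65.8% of all genes. The lens label was checked by marker genes. Of the listed lens markers 10 were found in the annotation, and all 10 had lens H3K4me2 at a start, while 5 of them (Cryaa, Cryab, Maf, Pax6 and Prox1) had it in control αTN4 cells. Bfsp1, Bfsp2, Foxe3, Lim2 and Mip had no H3K4me2, H3K4me3 or Pol2 at their starts in αTN4 cells. Genes of other cell types had lens H3K4me2 too, with 2 of 3 markers of vessel (Cdh5 and Tek) and 3 of 3 of skeletal muscle (Des, Myod1 and Myog). Among markers of retina and pigmented epithelium, Crx, Mitf and Rax had it at a start, and Tyr did not. None of 2 blood markers and 3 cornea markers had it. In control αTN4 cells these markers of other cell types went different ways. Tek and Mitf had H3K4me2 at a start as in lens, and Cdh5, Des, Myod1, Myog, Crx and Rax did not. Pecam1, Hba-a1 and Krt14 had it in control and not in lens. The part of other cell types in the result was not tested.

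**Figure D2:**
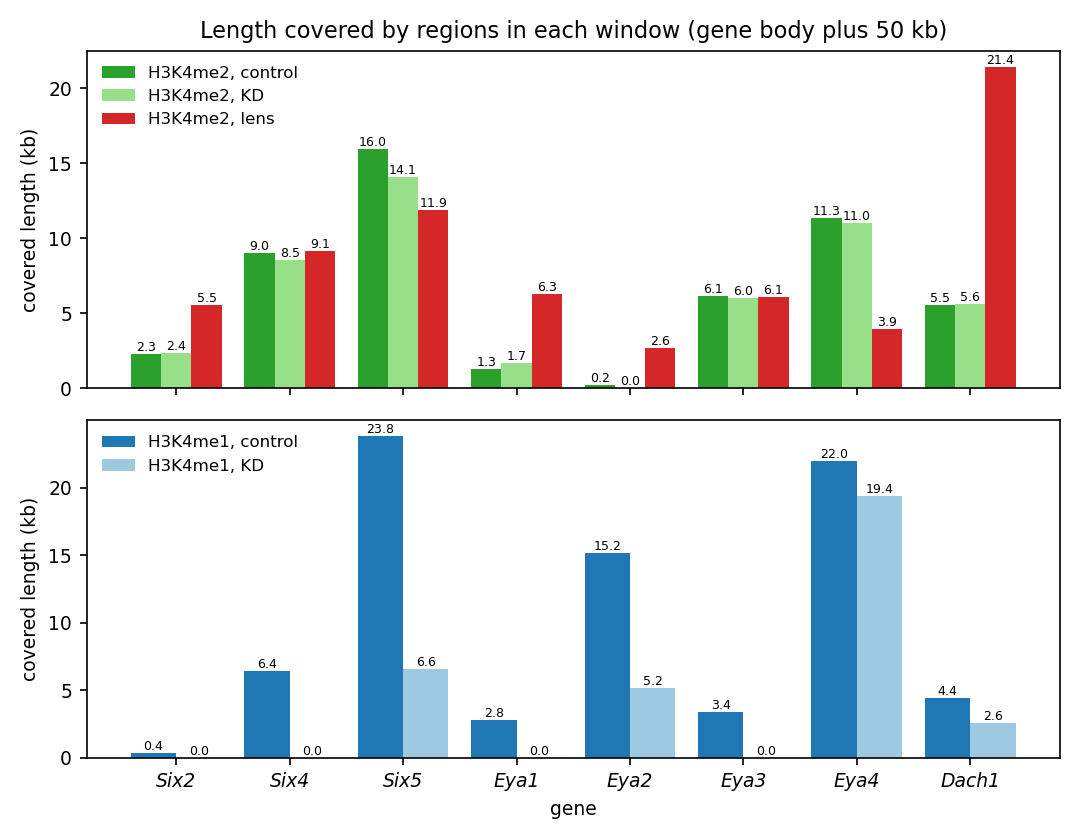
Length in kb covered by H3K4me2 peaks (upper panel) and H3K4me1 islands (lower panel) in the window of each gene, 1 bar per library. H3K4me2 in lens exceeded control most at Dach1 (21.4 against 5.52 kb) and fell short of it most at Eya4 (3.92 against 11.3 kb). H3K4me1 length was lower in KD at all 8 genes, and over the whole lists it fell to 65.1% of control. Six2 is among the 8 only through 393 bp of an island at the edge of its window.

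Over the whole windows, H3K4me2 differed between lens and αTN4 cells more than between control and KD. The 8 windows held 48 control, 56 KD and 58 lens H3K4me2 peaks, covering 51.7, 49.3 and 66.8 kb. Of the control peaks 42 overlapped a KD peak (87.5%, 95% Wilson interval 75.3 to 94.1), near the 82.5% of the whole control list. Of the same control peaks 28 overlapped a lens peak (58.3%, 44.3 to 71.2), where the whole list had 41.3%. Many of these control peaks lay nearer to the start of another gene, 8 of 12 at Six5, 5 of 8 at Eya3 and 3 of 6 at Six4. This share was not split by nearest start, so no order against the whole list is read from it. Of the lens peaks 24 overlapped a control peak (41.4%, 29.6 to 54.2), and 45.4% of the whole lens list did. The intervals cover counting error only.

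The overlap was mostly at starts. Within 2 kb of any start, 23 of 24 control peaks of the windows were found in lens, against 5 of 24 farther away (20.8%, 9.24 to 40.5). Over the whole control list the shares were 88.8% and 19.4%. Of the lens peaks 20 of 28 at starts were found in control, and 4 of 30 farther away (13.3%, 5.31 to 29.7), where the whole lens list had 75.0% and 27.4%.

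Covered length was greater in lens than in control for 5 of 8 members, where this held for 37.7% of genes with H3K4me2 in either. At Dach1 the 18 lens peaks covered 21.4 kb and the 5 control peaks 5.52 kb. At Eya1 the values were 6.30 and 1.26 kb, at Eya2 2.65 and 0.212 kb, and at Six2 5.52 and 2.30 kb. None of the 3 lens peaks of Eya1 and none of the 5 of Eya2 overlapped a control peak. Six4 (9.12 and 8.99 kb) and Eya3 (6.06 and 6.11 kb) were nearly level. Six5 (11.9 and 16.0 kb) and Eya4 (3.92 and 11.3 kb) had less in lens.

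**Figure D3:**
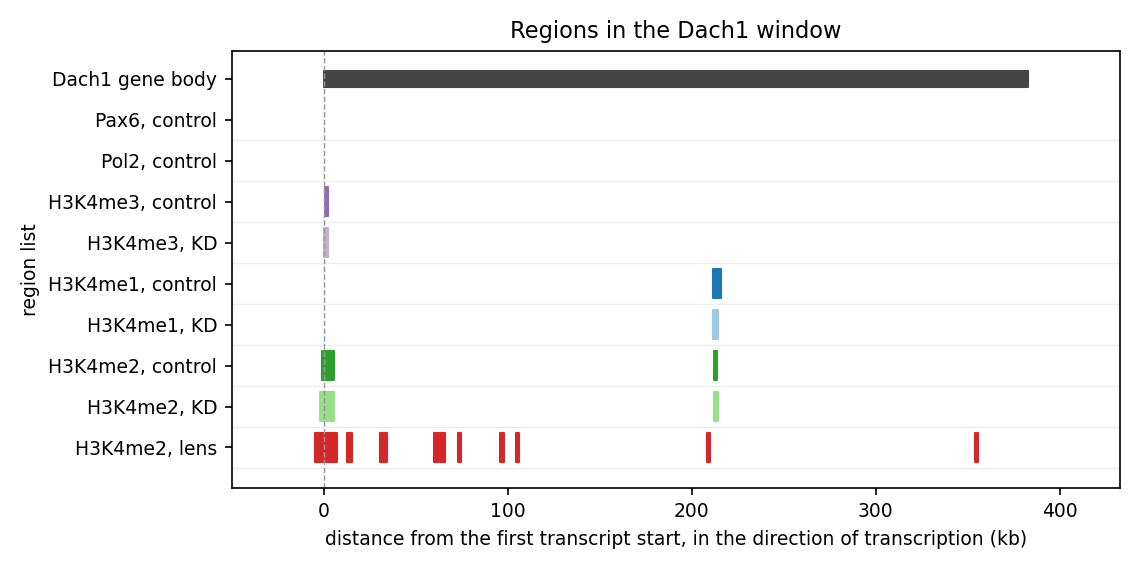
Regions in the Dach1 window by list, along the distance from the first start in kb. The bar at the top is the gene body, and regions under 1.6 kb wide are drawn 1.6 kb wide. Most lens H3K4me2 peaks lay at the start and in the first 105 kb of the gene, with further ones at 209 and 355 kb, while αTN4 cells had H3K4me2 at the start and at 1 site 213 kb into the gene.

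Dach1 had 16 of the 34 lens peaks without a control peak, the most of the 8 members. Of its 18 lens peaks 13 lay within introns, none of them shared. Those in introns ran from 6.04 to 355 kb past the start. The strongest away from the start was chr14:98471036-98473304, 96.6 kb into the gene, with a fold of 18.2 at percentile 76.1. The 201 bases around its summit, chr14:98472370-98472570 on the forward strand, are printed as the leading lens site of the gene that αTN4 cells lacked, with CpG in capitals.
Dach1 lens H3K4me2 summit: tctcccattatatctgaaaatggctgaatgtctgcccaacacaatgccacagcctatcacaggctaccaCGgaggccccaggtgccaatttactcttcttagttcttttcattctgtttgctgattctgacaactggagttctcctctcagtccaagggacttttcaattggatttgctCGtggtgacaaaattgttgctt
This stretch had 44.8% GC and 2 CpG. The next in an intron was chr14:98507116-98509106, 60.7 kb from the start, with a fold of 9.74 (percentile 61.1). In control cells the single intronic site far from the start, chr14:98355168-98356371 at percentile 58.3, lay inside the only H3K4me1 island of the window. It had no lens peak, and the nearest lens peak began 3.03 kb away at 98359397. The site was kept in KD cells as 2 narrower peaks.

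**Figure D4:**
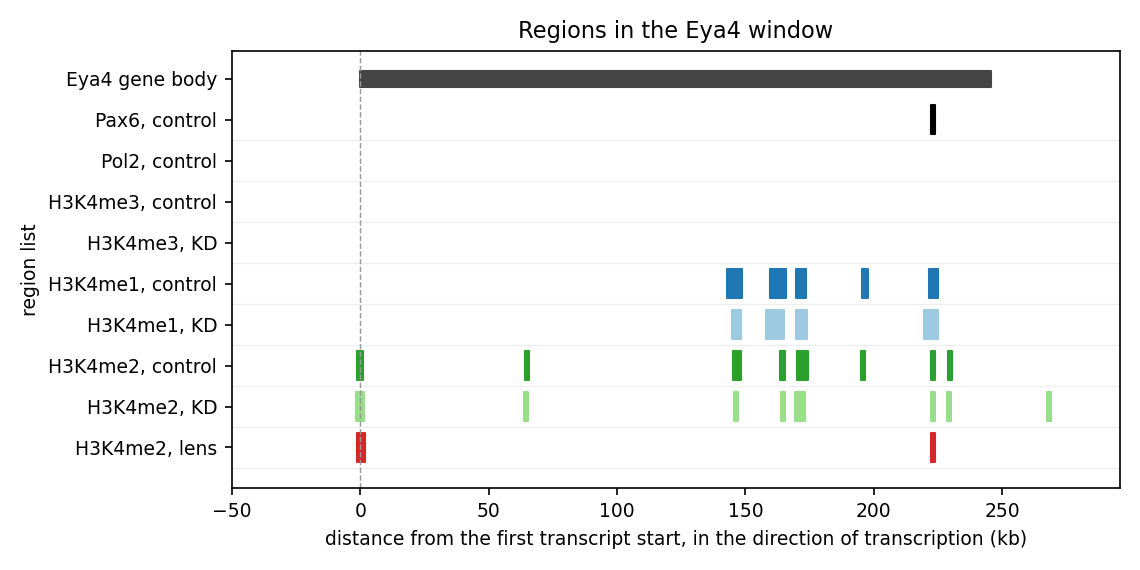
Regions in the Eya4 window by list, along the distance from the first start in kb. The bar at the top is the gene body, and regions under 1.6 kb wide are drawn 1.6 kb wide, so that neighbouring peaks can merge. The Pax6 peak at 223 kb coincided with H3K4me1 and H3K4me2 in control and KD cells and with the only lens H3K4me2 peak away from the start.

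Eya4 showed the opposite order. Of its 11 control H3K4me2 peaks 9 lay in introns, and 1 of these 9, at the Pax6 peak, was found in lens. The strongest intronic peak in control was chr10:22922581-22924372, 146 kb from the start, with a fold of 9.88 (percentile 64.3). In KD cells it had a fold of 10.8 (percentile 65.5), and it had no lens peak. Further peaks at 164 kb (percentile 50.1) and 172 kb (percentile 39.9) lay inside H3K4me1 islands and likewise had none. The only lens peaks of the window were those at the start and at the Pax6 site.

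The H3K4me2 peaks that differed between control and KD were weak. The 6 control peaks with no KD peak (1 at Eya2, 1 at Eya3, 3 at Eya4 and 1 at Dach1) stood at percentiles 2.53 to 38.1 and were 212 to 407 bp wide, where the median of the control list was 865 bp. The 6 KD peaks with no control peak, 1 at each of Six2, Six4, Eya1, Eya3, Eya4 and Dach1, reached percentile 43.0 at most. That of Eya1, chr1:14297359-14297788, and that of Dach1, chr14:98569843-98570260, lay inside lens H3K4me2 peaks. H3K4me2 length was over 1.5 times lower in KD at 1 of 8 members, Eya2, where this held for 6.5% of genes. The Eya2 control peak was a single one of 212 bp with a fold of 3.06. H3K4me3 was kept at all 10 control peaks of the windows (95% Wilson interval 72.2 to 100), and 89.9% of the whole list was kept.

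**Figure D5:**
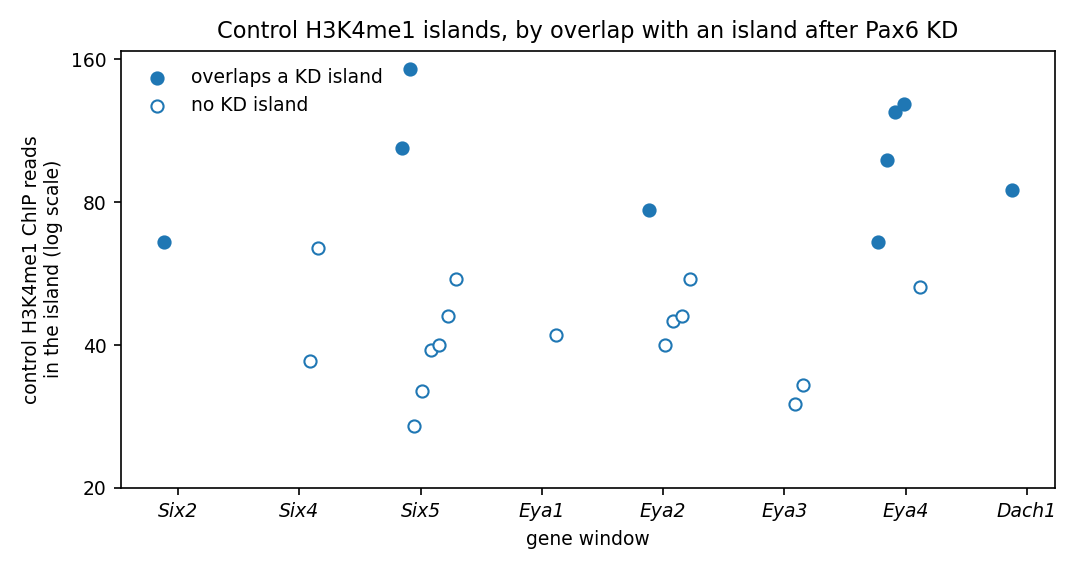
Control H3K4me1 islands of each window by the number of ChIP reads they held (log axis). Filled circles overlap an island of Pax6 KD cells and open circles do not. The 9 islands with a KD counterpart held 66 to 153 reads and the 16 without 27 to 64.

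H3K4me1 differed most between control and Pax6 KD cells. All 8 windows held a control island (72.8% of all genes) and 4 held a KD island (52.5%). The 4 without were Six2, Six4, Eya1 and Eya3, where 28.3% of genes with a control island had none in KD. The Six2 island, chr17:86030001-86034000, reached only 393 bp into the window, lay nearer to Six3, and did overlap a KD island outside the window. Of 25 control islands 9 overlapped a KD island (36.0%, 20.2 to 55.5), and 46.2% of the whole list did. Among the 14 control islands whose nearest start is the member's, 7 overlapped a KD island. All 9 KD islands overlapped a control island. The number of ChIP reads separated the member islands, from 66 to 153 (median 98) in those kept and from 27 to 64 (median 41) in those not kept. The whole list had medians of 92 and 47, with ranges that overlapped widely (22 to 12906 and 17 to 519). Member islands that were kept were also wider, with medians of 4400 bp and 2600 bp. Fold did not separate them, with medians of 3.46 in those kept and 3.59 in those not kept. The total number of reads of the H3K4me1 libraries is unknown, and the part of depth in the loss was not tested.

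Covered H3K4me1 length fell from 78.4 kb in control to 33.8 kb in KD, to 43.1%, where the whole lists fell to 65.1%. This length includes islands nearer to the starts of other genes and was not split by nearest start. Eya4 carried most of what was kept, at 22.0 kb in control and 19.4 kb in KD, and without Eya4 the other 7 windows kept 25.5%. With each other member left out in turn, the share ran from 42.2% (without Dach1) to 49.8% (without Six5). Length was over 1.5 times lower in KD at 7 of 8 members, all but Eya4, where this held for 67.2% of genes with a control island. Six5 had 23.8 kb in control and 6.60 kb in KD, Eya2 15.2 and 5.20 kb, and Dach1 4.40 and 2.60 kb. Six4 (6.40 kb), Eya1 (2.80 kb) and Eya3 (3.40 kb) had none in KD.

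The islands that were lost and kept at single genes are given by their reads. At Six4 the larger lost island, chr12:74245401-74249600 with 64 reads, lay at −33.1 kb from the first start, nearer to the start of Mnat1. Its H3K4me2 peak (chr12:74247665-74249386, percentile 69.1) was kept in KD as 2 peaks. At Eya1 the only island, chr1:14262201-14265000 with 42 ChIP reads and 41 control-library reads, held the only H3K4me2 peak of the window, which stood at percentile 42.6 in control and 58.8 in KD. At these Six4 and Eya1 sites H3K4me1 was not called in KD while H3K4me2 was.

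At Eya2 the island at the start, chr2:165477801-165481800 with 77 reads, was kept in KD with 67 reads over chr2:165473801-165479000, shifted away from the gene. Its density was 19.3 reads per kb in control and 12.9 in KD, or −0.27 relative to the median of all pairs. The 4 other Eya2 islands, among them 2 in introns, were not kept. At Eya3 the 2 islands held 30 and 33 reads. The intronic one, chr4:132207401-132209200, overlapped an H3K4me2 peak at percentile 18.4 in control and 22.6 in KD.

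Eya4 had 5 control islands, all in introns between 146 and 223 kb from the start and all overlapping control H3K4me2, and 4 of them were kept. The one not kept, chr10:22872001-22874200 with 53 reads, also lost its weak H3K4me2 peak (percentile 6.43). The island chr10:22896201-22900000 had 124 reads in control and 81 in KD, and its density fell from 32.6 to 18.4 reads per kb, −0.52 relative to the median and at percentile 6.14 of all pairs. The island chr10:22921001-22926800 stood at 0.28 relative to the median and the one at the Pax6 peak at 0.13. At Dach1 the kept island had 85 reads in control and 48 in KD and stood at 0.24. Over the 7 member islands paired 1 to 1 the median was 0.13, with a range of −0.52 to 0.35, and the middle 80% of all pairs lay between −0.43 and 0.44. Only the Eya4 island at −0.52 fell outside that range. Density divides reads by the width of each island as called, so it can hold or rise where an island narrows. The Six5 island at 0.35 went from 153 reads in control to 66 in KD, and the one at the Pax6 peak from 66 to 83. The 16 member islands without a KD island are not in these values.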

How the data were processed

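Per the labels and the methods of the study, reads were aligned to mm9 with Bowtie, sharp peaks (Pax6, Pol2, H3K4me2 and H3K4me3) were called with MACS2 and H3K4me1 islands with SICER, at default settings, and blacklisted regions were left out. The Pax6 list used here, of 504 peaks, is slightly longer than the count given in the study. Whether the lists used here had passed the blacklist filter is therefore not known. For MACS2 peaks the authors deposited a fold enrichment (a ratio) and the −log10 of p and q. For SICER islands they deposited 2 counts, of ChIP reads and of reads from an unnamed control library, besides a fold, a p-value and an FDR. The authors' remaining score column was not used. Which shRNA the KD cells carried is stated in the methods only (sh2), and the name of the control H3K4me2 peaks hints at pooled runs. One label field names the Pax6 and Pol2 antibodies the other way round, and titles decided the assignment here.

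The 8 genes, the marker lists and the tests were chosen with earlier results of these data known. Windows were the GENCODE vM1 gene body plus 50 kb. A region was at a start when it lay within 2 kb of a protein-coding transcript start, and 2 regions were shared when they overlapped by 1 bp. SICER ends were read as included. Every member was named. Other genes were named only where their start lay in a member window at a region described, as relatives or as markers, and some items of these lists are not reported here. Regions named were every Pax6 peak, regions at starts, the strongest H3K4me2 peaks and the largest H3K4me1 islands kept or lost, and further regions were chosen after their values were seen. Shares carry 95% Wilson intervals for counting error. With 1 library per condition there was no test across conditions. The depth of the libraries is unknown. The Pax6 matrix was found by expectation maximization on both strands, with windows 500 bases beside each summit as background. Overlap counts and the motif search were tested on simulated data and returned 300 of 300 planted overlaps and 150 of 150 planted sites. The planted sites were near copies of a single random word in random bases. Their recovery therefore does not measure the search on variable Pax6 sites in genomic sequence. The tools were pandas 2.3.3, SciPy 1.17.1, NumPy 2.4.6, pysam 0.24.0 and matplotlib 3.10.9 under Python 3.11.15. Alternatives covered the window, the distance to a start, a stricter threshold (−log10 q of 5 or more, FDR of 1e-06 or less), an overlap of 50% of the shorter region, each member left out, and, chosen after seeing the data, only regions whose nearest start is the member's, and the 1 kb distance and the stricter threshold for lens H3K4me2 at starts.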

Additional observations from a re-analysis of the deposited data

How the results depend on the processing

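Of the 70 alternative values, 66 stayed within the interval of a main share, within 1.5 times a count, or, for H3K4me1 density, within a set log2 difference. The counts of members with a Pax6 peak, with Pol2 at a start and with H3K4me3 at a start in control or KD did not change with the window, the distance to a start or the stricter threshold. The Pax6 peak nearest to Six2, at 100.4 kb, lay just beyond the widest window, which took 100 kb on either side. The summit window of the Eya4 Pax6 peak passed neither the 5% nor the 1% motif score. The share of lens H3K4me2 peaks found in control, 41.4%, was 23.3% over gene bodies alone and 27.0% over regions whose nearest start is the member's, and it ranged from 28.9% without Six5 to 55.0% without Dach1. The cause was not tested. With each member left out, the share of H3K4me1 islands kept ranged from 25.0% (without Eya4) to 41.2%, that of H3K4me2 peaks from 83.3% to 91.9%, and that of H3K4me3 peaks was 100% throughout. Within gene bodies 54.5% of 11 H3K4me1 islands were kept, over 1.5 times the main 36.0%, so no order against the whole list can be read from it. The median H3K4me1 density relative to all pairs stayed between 0.12 and 0.14. No paired analysis was possible because each condition has 1 library and no result comes from a test. The depth of the libraries is unknown, so a region absent from a list cannot be read as absent from the cells.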
